A study of Rattus norvegicus with 6 samples.

Results

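The let-7 and miR-98 family comprises the miRNAs rno-let-7a, rno-let-7b, rno-let-7c, rno-let-7d, rno-let-7e, rno-let-7f, rno-let-7g, rno-let-7i and rno-mir-98. These 9 members were chosen by hairpin name, with copies of a gene joined, and came from 12 hairpins. They gave 16 mature arms with counts, 9 on the 5p side and 7 on the 3p side, of 932 arms with counts in all. Small RNA was sequenced from RSC96, an immortalised rat Schwann cell line that is labelled as nerve. The tested libraries were 3 from cells kept for 48 h in high glucose, and the controls were 3 from cells kept for 48 h in low glucose. No genotype or other agent is named for either group; the labels do not state the glucose concentrations. The series title concerns exosomes, the vesicles that cells release, whereas the labels name cells and the extraction text names retina, so the source of the RNA is given here only as labelled. Whether the 3 libraries of a group stem from separate cultures is not stated, and every p-value here refers to the spread among libraries, which may be technical.

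let-7 miRNAs form a family of mature RNAs that share a seed, the bases near the 5′ end through which a miRNA pairs with its targets. They are known in mammals as repressors of growth and stem cell genes such as Lin28, Hmga2 and Ras genes. LIN28 proteins in turn bind let-7 precursors and block their maturation, and terminal uridylyl transferases are known in human cells to add U residues to the 3′ end of let-7 precursors. In mouse Schwann cells the Lin28 and let-7 axis is known to act in myelination.

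The 5p arms are shown first because single bases outside the seed are all that tells them apart in a library. The sequences are those of RefSeq for the GRCr8 assembly, written 5′ to 3′, with the seed (bases 2 to 8) in capitals.
rno-let-7a-5p: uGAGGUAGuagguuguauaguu
rno-let-7b-5p: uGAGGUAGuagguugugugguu
rno-let-7c-5p: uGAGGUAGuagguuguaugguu
rno-let-7d-5p: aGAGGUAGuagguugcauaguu
rno-let-7e-5p: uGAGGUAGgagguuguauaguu
rno-let-7f-5p: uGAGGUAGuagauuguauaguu
rno-let-7g-5p: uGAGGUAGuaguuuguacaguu
rno-let-7i-5p: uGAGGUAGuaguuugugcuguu
rno-miR-98-5p: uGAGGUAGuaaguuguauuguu
All 9 carry the same seed, and no other arm with counts carried it in its most abundant sequence. Counted from 1 at the 5′ end and with let-7a-5p as the reference, let-7c-5p differs by A19G alone and let-7e-5p by U9G alone. let-7b-5p carries A17G and A19G, and let-7d-5p carries U1A and U16C. let-7f-5p differs by G12A alone, let-7g-5p carries G12U and U18C, and let-7i-5p carries G12U, A17G, U18C and A19U. miR-98-5p carries G11A and A19U.

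Depth was 963706, 1278405 and 1354456 counts in high glucose, against 123716, 148143 and 114615 counts in low glucose, a 9.31-fold difference in mean depth between the groups. Depth and glucose therefore cannot be told apart in these counts, and results are also given after thinning each library to the size of the smallest one where this ends a call or a test. Markers that were set for other cell types differed between the groups as well. The summed level of the 3 liver miRNAs, all detected, was 9192 to 15590 CPM, the counts scaled to library size, in high glucose, against 3197 to 4693 CPM in low glucose. miR-122-5p supplied most of this sum, at 12202 CPM in high glucose, against 3510 CPM in low glucose, and the miR-194 arms were too low to be tested. For the 5 neuron miRNAs, of which 4 were detected and miR-124 was at 0, the summed level was 16692 to 22925 CPM in high glucose, against 7109 to 9279 CPM in low glucose, but these members differed in direction. miR-128-3p averaged 18246 CPM in high glucose, against 1992 CPM in low glucose, and supplied most of the sum. miR-218a-5p averaged 935 CPM in high glucose, against 4644 CPM in low glucose (log2 fold change -2.31, adjusted p = 7.64e-05), and miR-9a-5p 1505 CPM in high glucose, against 1476 CPM in low glucose. The 3 erythroid miRNAs, all detected, stood at 762 to 954 CPM in high glucose, against 3250 to 6395 CPM in low glucose. Only 2 of 4 Schwann and glia miRNAs were detected, with miR-338 and miR-138 at 0, at 34.2 to 61.4 CPM in high glucose, against 40.2 to 71.7 CPM in low glucose. miR-219a-3p averaged 36.7 CPM in high glucose, against 23.9 CPM in low glucose, with overlap. The miR-204 arms, too low to be tested, differed in direction. miR-204-3p averaged 1.64 CPM in high glucose, against 29.7 CPM in low glucose, and miR-204-5p 8.98 CPM in high glucose, against 0 CPM in low glucose. Retina miRNAs, of which 3 of 4 were detected with miR-96 at 0, overlapped in sum at 31.9 to 116 CPM in high glucose, against 48.7 to 107 CPM in low glucose. Their members differed in direction. miR-183-5p averaged 18.7 CPM in high glucose, against 59.3 CPM in low glucose (log2 fold change -1.63). miR-211-5p, too low to be tested, averaged 38.7 CPM in high glucose, against 4.64 CPM in low glucose. The 4 leukocyte miRNAs, all detected, overlapped in sum at 49.9 to 249 CPM in high glucose, against 104 to 161 CPM in low glucose. Of the muscle miRNAs, 2 of 3 were detected, in high glucose only and at up to 56.4 CPM, with miR-133a at 0. The part of these markers in the let-7 results was not tested.

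Within the family, let-7a, let-7b, let-7c, let-7d and let-7e rose in high glucose on the 5p side, by 3.85-fold to 7.96-fold, and miR-98-5p rose by 2.24-fold. let-7g-5p and let-7i-5p fell, and let-7f-5p did not pass the test. All 9 5p arms passed the filter on low counts, and 6 were called higher, 2 lower and 1 neither by edgeR's quasi-likelihood test at an adjusted p under 0.05. The background for these counts is high, since 41.4% of the 297 arms tested were called higher and 22.6% lower. The median log2 fold change (high over low glucose) was 1.94 over the 9 5p arms and 0.68 over all tested arms. In bulk RNA, fewer cells of a type and less RNA per cell cannot be told apart.

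let-7c-5p was the most abundant member in high glucose, where it ranked 2 among all arms, and ranked 9 in low glucose. Its level was 100848, 121065 and 143236 CPM in high glucose, against 15110, 14261 and 16489 CPM in low glucose. Each high glucose library stood several times above every low glucose library. The log2 fold change was 2.99 (SE 0.18, adjusted p = 2.54e-05), with 121716 ± 21201 CPM in high glucose, against 15287 ± 1125 CPM in low glucose (SD, n = 3 each).

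let-7b-5p, which differs from let-7c-5p at 1 base, had 48092, 73114 and 73216 CPM in high glucose, against 11572, 11379 and 11814 CPM in low glucose. The groups did not overlap, and the low glucose libraries lay close together. Its log2 fold change was 2.48 (SE 0.20, adjusted p = 6.17e-05).

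let-7a-5p had 21716, 13775 and 25353 CPM in high glucose, against 2646, 2540 and 3332 CPM in low glucose. High glucose replicate 2 was the lowest of its group but still above all controls. The log2 fold change was 2.84 (SE 0.26, adjusted p = 7.64e-05), so that the groups differed about as much for let-7a-5p as for let-7c-5p.

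Among the less abundant members, let-7d-5p had 1895, 1134 and 1716 CPM in high glucose, against 425, 322 and 493 CPM in low glucose. let-7e-5p had 1549, 1508 and 2317 CPM in high glucose, against 397, 536 and 349 CPM in low glucose. Both were separated between the groups, with log2 fold changes of 1.94 (SE 0.27, adjusted p = 0.000654) for let-7d-5p and 2.06 (SE 0.26, adjusted p = 0.000439) for let-7e-5p. miR-98-5p was the rarest 5p arm, at 208, 187 and 227 CPM in high glucose, against 111, 107 and 53.7 CPM in low glucose. The low glucose values rest on 16, 16 and 6 counts. Its log2 fold change of 1.16 (SE 0.31, adjusted p = 0.0117) was no longer called after thinning (0.81, adjusted p = 0.0950) or with upper quartile scaling (0.55, adjusted p = 0.209).

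The members with another base at position 12 behaved otherwise. let-7g-5p was the most abundant member in low glucose, with 19572, 13530 and 18425 CPM in high glucose, against 35825, 37636 and 36247 CPM in low glucose. All high glucose libraries lay below all low glucose libraries, and the level was 2.13-fold lower in high glucose (log2 fold change -1.09, SE 0.17, adjusted p = 0.00122). let-7i-5p had 12862, 10418 and 12401 CPM in high glucose, against 16105, 18081 and 17958 CPM in low glucose. This smaller difference was 1.46-fold (log2 fold change -0.55, SE 0.15, adjusted p = 0.0121). The call did not survive leaving out low glucose replicate 1 (adjusted p = 0.0542), replicate 2 (adjusted p = 0.147) or the mismatched sequences (adjusted p = 0.0625). It was also lost without the filter on low counts (adjusted p = 0.0707) and when the most abundant sequence alone was counted (adjusted p = 0.107).

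let-7f-5p, which differs from let-7a-5p at position 12 only, had 24130, 14026 and 23095 CPM in high glucose, against 19712, 21747 and 22535 CPM in low glucose. The groups overlapped, and the log2 fold change of -0.06 (SE 0.22, adjusted p = 0.819) did not pass. With upper quartile scaling, which lowered the log2 fold change of a typical arm by 0.58, let-7f-5p was called lower (-0.66, adjusted p = 0.0247), while let-7g-5p and let-7i-5p kept their direction under each scaling tried.

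**Figure D1:**
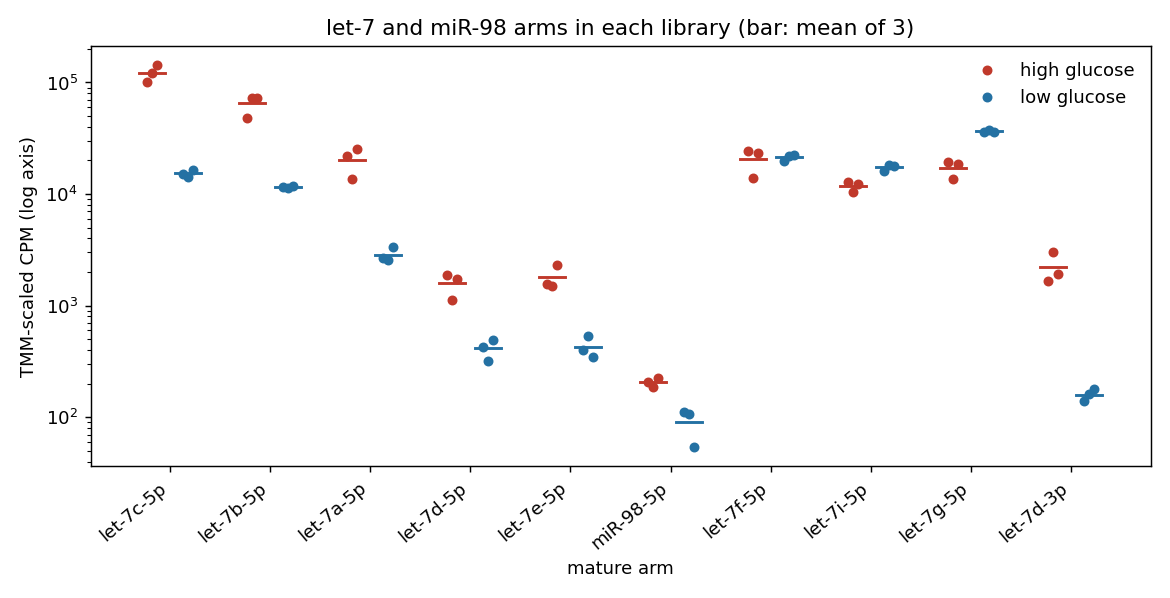
TMM-scaled CPM on a log axis for the 9 5p arms and let-7d-3p, with a dot per library (high glucose red and left, low glucose blue and right) and a bar at the mean of 3. let-7c-5p averaged 121716 CPM in high glucose, against 15287 CPM in low glucose, whereas the let-7f-5p dots overlap and the let-7g-5p and let-7i-5p dots of high glucose lie below those of low glucose.

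The pattern follows the bases at positions 11 and 12, which was noticed after the values were seen and is given as a description. The 5 members with G at both positions (let-7a, let-7b, let-7c, let-7d and let-7e) had log2 fold changes of 1.94 to 2.99. miR-98-5p with G11A lay at 1.16, let-7f-5p with G12A at -0.06, and let-7g-5p and let-7i-5p with G12U at -1.09 and -0.55. Base composition moved with fold change elsewhere in the data: outside the family the median log2 fold change was -0.34 over the 40 tested arms with under 40% G and C and 0.76 over the 243 others. Over the family's 5p arms it was 0.55 for the 4 with under 40% and 2.06 for the 5 others. At 31.82% lay let-7f-5p (-0.06) and miR-98-5p (1.16). At 36.36% let-7a-5p rose and let-7g-5p fell. At 40.91% let-7c-5p, let-7d-5p and let-7e-5p rose and let-7i-5p fell, and let-7b-5p at 45.45% rose. The part of sequence composition in these differences was not tested.

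**Figure D2:**
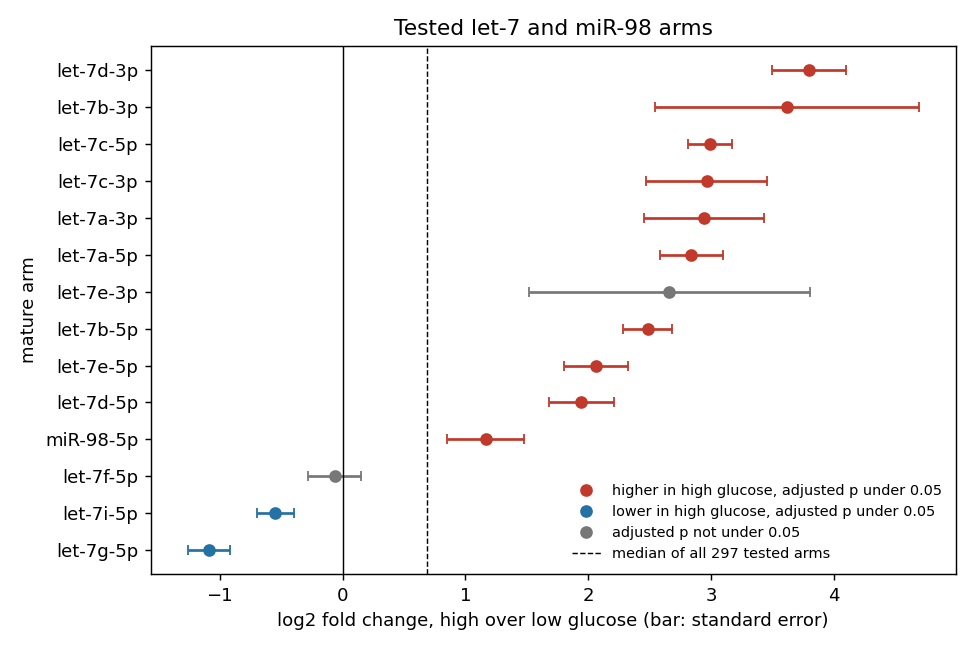
Log2 fold change (high over low glucose) with its standard error for the 14 tested family arms, coloured by the edgeR call; the dashed line is the median of all 297 tested arms at 0.68. let-7d-3p lies highest at 3.79 and let-7g-5p lowest at -1.09.

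As a share of all counts, the 9 5p arms made up 23.1, 23.8 and 27.1% in high glucose, against 11.8, 10.7 and 10.6% in low glucose. The family's share was thus above every control in each high glucose library, at 24.7 ± 2.10% in high glucose, against 11.1 ± 0.659% in low glucose (SD, n = 3 each; exact permutation test, two-sided, p = 0.1). That p is the smallest that 3 against 3 libraries allow, a limit that applies to every exact test given here. The 3p arms made up 0.270 ± 0.0703% in high glucose, against 0.0262 ± 0.00905% in low glucose (exact p = 0.1).

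The make-up of the family differed strongly between the groups. let-7c-5p held 43.7, 48.7 and 47.7% of the family's 5p counts in high glucose, against 14.8, 13.4 and 15.1% in low glucose. let-7g-5p held 8.48, 5.44 and 6.14% in high glucose, against 35.2, 35.3 and 33.2% in low glucose. The leading member was therefore let-7c-5p in each high glucose library and let-7g-5p in each low glucose library.

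let-7b-5p averaged 24.9 ± 4.30% of the family in high glucose, against 10.9 ± 0.361% in low glucose. let-7f-5p averaged 7.93 ± 2.42% in high glucose, against 20.1 ± 0.683% in low glucose, and let-7i-5p 4.63 ± 0.814% in high glucose, against 16.4 ± 0.579% in low glucose (SD, n = 3 each). Of the 9 shares, 8 did not overlap between the groups (exact p = 0.1, adjusted p = 0.1125 over the 9 shares), and that of miR-98-5p did, at 0.0803% in high glucose, against 0.0864% in low glucose (adjusted exact p = 0.9). In CPM, 45.8% of all tested arms lay above all controls and 25.9% below them. The shares add up to the whole and so depend on each other. That of let-7f-5p was lower in high glucose although its CPM overlapped.

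**Figure D3:**
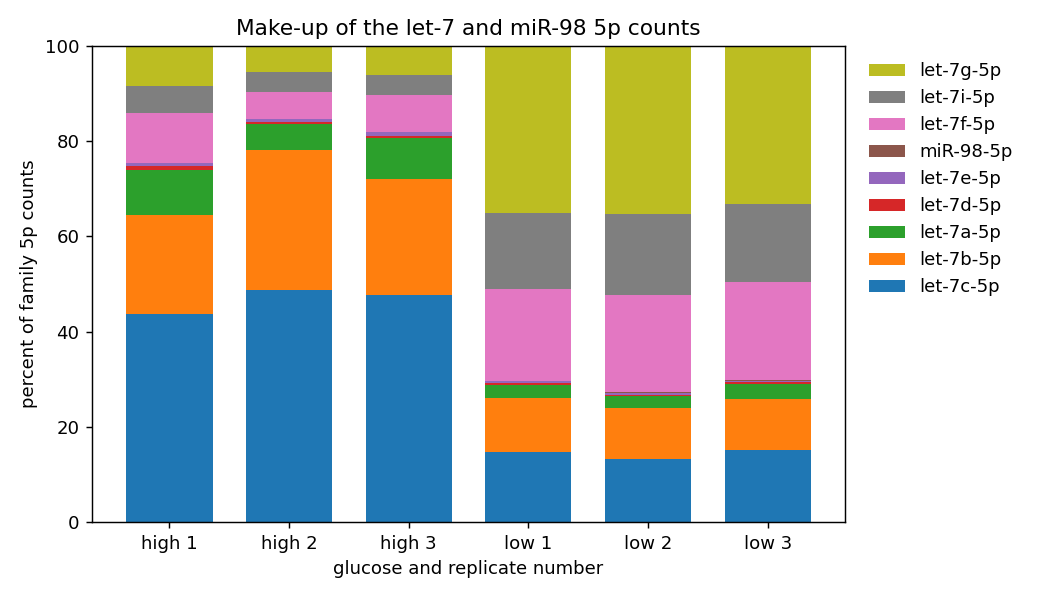
Stacked bars of each member's percent of the family's 5p counts, with the 3 high glucose libraries on the left and the 3 low glucose libraries on the right. let-7c-5p (bottom) fills 43.7 to 48.7% of the high glucose bars and 13.4 to 15.1% of the low glucose bars, and let-7g-5p (top) 5.44 to 8.48% of the high glucose bars and 33.2 to 35.3% of the low glucose bars.

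Ratios between members need no library scaling. For each let-7g-5p count there were 5.15, 8.95 and 7.77 counts of let-7c-5p in high glucose, against 0.422, 0.379 and 0.455 in low glucose. The order of the pair was reversed between the groups in every library (exact p = 0.1). let-7a-5p, which differs from let-7f-5p at 1 base, was 0.900, 0.982 and 1.10 times as abundant as let-7f-5p in high glucose, against 0.134, 0.117 and 0.148 times in low glucose. By contrast, the ratio of let-7a-5p to let-7c-5p overlapped, at 0.215, 0.114 and 0.177 in high glucose, against 0.175, 0.178 and 0.202 in low glucose (exact p = 0.8). The members that fell were closer to each other in level in high glucose. The ratio of let-7g-5p to let-7i-5p was 1.44 ± 0.120 in high glucose, against 2.11 ± 0.106 in low glucose (exact p = 0.1). The ratio of let-7c-5p to let-7g-5p had an adjusted exact p of 0.1 over the 8 ratios to let-7g-5p. This pair joins the 5p arms with the highest and the lowest log2 fold change, so its separation is no further evidence of a difference. The other ratios had adjusted exact p-values of 0.114 over a separate set of 8 pairs (0.8 for let-7a-5p to let-7c-5p).

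On the 3p side, the strand usually discarded, let-7d stood apart. The sequence of its 3p arm is shown from RefSeq (GRCr8), with bases 2 to 8 in capitals.
rno-let-7d-3p: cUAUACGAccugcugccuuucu
let-7d-3p had 1647, 3031 and 1940 CPM in high glucose, against 139, 161 and 179 CPM in low glucose. This was the largest fold change among the tested family arms, with a log2 value of 3.79 (SE 0.30, adjusted p = 6.17e-05). Per 100 counts of let-7d-5p there were 86.9, 267 and 113 counts of let-7d-3p in high glucose, against 32.8, 50 and 36.4 in low glucose. The 3p arm was thus the more abundant strand in high glucose replicates 2 and 3, and the ranges did not overlap (exact p = 0.1, adjusted p = 0.2 over 2 ratios). The low glucose ratios rest on 20, 24 and 20 counts of the 3p arm.

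The remaining 3p arms were rare. let-7a-3p and let-7c-3p cannot be told apart here, because the let-7a-1 and let-7c-2 hairpins give the same 3p sequence, and 100% and 98.6% of their counts were shared. Joined, they had 447, 586 and 730 counts in high glucose, against 6, 4 and 16 in low glucose. Their log2 fold change when joined was 3.06 (SE 0.48, adjusted p = 0.000518). Without low glucose replicate 3 the separate arms stood at 3.86 for let-7a-3p and 3.88 for let-7c-3p, against 2.94 for let-7a-3p and 2.96 for let-7c-3p with all libraries. Per 100 5p counts of both members the joined 3p arm had 0.378, 0.355 and 0.354 in high glucose, against 0.235, 0.160 and 0.723 in low glucose. These ranges overlapped (exact p = 1).

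let-7b-3p and let-7e-3p passed the filter on low counts through the high glucose libraries alone, so a difference was built into their selection. let-7b-3p had 29, 79 and 119 counts in high glucose, against 0, 0 and 2 in low glucose. Relative to library totals high glucose had 12.2 times as many (95% counting interval 3.34 to 101; adjusted p = 0.0184 in edgeR). The call was lost without low glucose replicate 1 (adjusted p = 0.0706) or 2 (adjusted p = 0.0553), and after thinning the arm was too low to be tested. let-7e-3p had 22, 67 and 26 counts in high glucose, against 0, 0 and 2 in low glucose, a ratio of 6.18 (95% counting interval 1.67 to 51.6) that was not called (adjusted p = 0.0733) but passed in limma-voom (adjusted p = 0.0376) and without low glucose replicate 3 (adjusted p = 0.0240). let-7f-3p with 9, 29 and 23 counts in high glucose, against 0, 3 and 2 in low glucose, and miR-98-3p with 0, 0 and 9 in high glucose, against 0 in each low glucose library were too low to be tested. No counts were listed for let-7g-3p or let-7i-3p in any library.

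Of the 14 family arms tested, 10 were called higher and 2 lower, beside backgrounds of 41.4% and 22.6%. let-7a-3p and let-7c-3p, which share nearly all their counts, stand as 2 arms in these 14 and in the 12 tested after thinning. With such arms joined, 9 of 13 family arms were called higher and 2 lower, beside 106 higher and 55 lower of all 257 arms. In all, 4 3p arms (let-7a-3p, let-7b-3p, let-7c-3p and let-7e-3p) passed the filter through the high glucose libraries alone, so a difference was built into their selection. The 10 arms that passed in both groups included 7 called higher and 2 lower, with a median log2 fold change of 2.00. After thinning, 12 family arms could be tested, of which 8 were called higher and 2 lower, beside 62 higher and 59 lower of all 170 arms. let-7b-3p and let-7e-3p were then too low to be tested, and miR-98-5p was no longer called. Complete separation above the controls, seen in 11 of the 14, occurred in 45.8% of all tested arms, and separation below, seen in 2, in 25.9%.

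The listed sequences also show where the family's RNAs end. Over the 5p arms, 98.6, 98.1 and 98.7% of counts began at the RefSeq first base in high glucose, against 99.5, 99.3 and 99.3% in low glucose, so nearly all carried the canonical seed. Sequences of 22 nt made up 72.6 ± 1.41% in high glucose, against 72.6 ± 0.762% in low glucose (SD, n = 3 each; exact p = 1). Sequences of 24 nt or more made up 2.62, 2.97 and 2.63% in high glucose, against 0.984, 0.962 and 0.934% in low glucose. This higher share (exact p = 0.1, adjusted p = 0.157 over 11 measures) came with the higher share of let-7b-5p, which had long forms at 7.69 ± 0.307% in high glucose, against 4.93 ± 0.393% in low glucose. In let-7c-5p such forms were at 1.48 ± 0.245% in high glucose, against 1.72 ± 0.128% in low glucose.

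Lengths differed between the groups in several members. The share of 23 nt sequences lay below all controls in let-7c-5p, let-7d-5p, let-7e-5p and let-7i-5p. It lay above them in let-7b-5p and let-7g-5p, and overlapped in let-7a-5p, let-7f-5p and miR-98-5p. Lengths were not measured for arms outside the family, so how often such shares separate elsewhere in the data is not known. For the same reason these separations are not read as a trait of the family. For let-7d-5p the 23 nt share was 9.97 ± 1.29% in high glucose, against 22.7 ± 2.90% in low glucose, on 61, 48 and 55 low glucose counts. In let-7g-5p other lengths differed as well. Its 21 nt sequences, led by the form that lacks the last U of the RefSeq sequence, made up 14.2, 23.2 and 19.8% of its counts in high glucose, against 11.8, 12.3 and 10.3% in low glucose. Its 22 nt sequences were at 70.9, 62.2 and 64.4% in high glucose, against 76.3, 76.8 and 78.9% in low glucose. Both measures were separated (exact p = 0.1, adjusted p = 0.230 over the measures of all members), and both stayed separated after thinning, at 19.0 ± 4.51% in high glucose, against 11.4 ± 1.05% in low glucose for the 21 nt sequences. The form that lacks the last U was itself at 13.3, 22.1 and 18.7% in high glucose, against 10.8, 11.1 and 9.41% in low glucose. Counts of let-7g-5p that end in a mismatched A were at 8.74 ± 1.19% in high glucose, against 5.41 ± 0.375% in low glucose.

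let-7i-5p showed other differences. Fragments of 20 nt or less made up 4.80, 7.89 and 6.52% of its counts in high glucose, against 1.99, 2.56 and 1.9% in low glucose. Forms ending in a mismatched T, the sequenced letter for U, made up 7.40, 4.95 and 7.15% in high glucose, against 11.4, 9.12 and 11.2% in low glucose. For a mismatched A the values were 12.6 ± 0.662% in high glucose, against 15.2 ± 1.45% in low glucose. Each was separated between the groups (exact p = 0.1, adjusted p = 0.230).

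Over the family, ends with a mismatched T were at 0.511 ± 0.104% in high glucose, against 1.81 ± 0.129% in low glucose, and let-7i-5p supplied 47.4 to 65.5% of them in high glucose, against 93.2 to 97.8% in low glucose. Where the hairpin itself continues with T, as behind the RefSeq end of let-7a-5p and let-7b-5p, an added U matches the hairpin and is not counted as a mismatch. Family shares of such ends therefore move with the make-up of the family as well as within members.

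**Figure D4:**
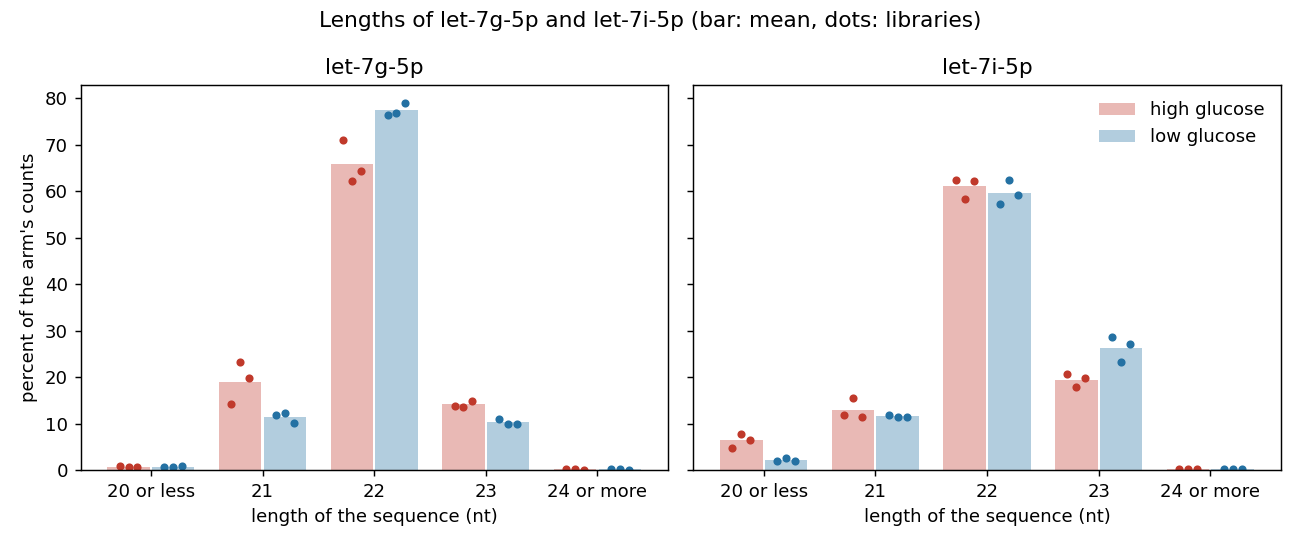
Percent of the counts of let-7g-5p (left) and let-7i-5p (right) by sequence length in nt, with bars at the mean of 3 libraries and a dot per library (high glucose red and left, low glucose blue and right). The 21 nt share of let-7g-5p lies between 14.2 and 23.2% in high glucose and between 10.3 and 12.3% in low glucose.

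Apart from let-7d-3p, the most abundant sequence of each 3p arm ended differently from its RefSeq record. The most abundant sequence of let-7a-3p and let-7c-3p in the files is set beside the RefSeq sequence of the let-7a-1 hairpin (bases 2 to 8 in capitals), and differs from it by C22T at its last base, with T as the sequenced letter for U.
most abundant let-7a-3p and let-7c-3p sequence: cTATACAAtctactgtctttct
rno-let-7a-1-3p in RefSeq: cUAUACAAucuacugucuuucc
Of the joined let-7a-3p and let-7c-3p counts, 1480 of 1763 in high glucose and all 26 in low glucose ended in a mismatched T. For let-7b-3p these were 176 of 227 counts in high glucose, against 0 of 2 in low glucose, and for let-7e-3p 86 of 115 in high glucose, against 0 of 2 in low glucose. let-7f-3p had 52 of 61 in high glucose, against 5 of 5 in low glucose. The counts in low glucose are too few for a comparison of these shares, and sequencing errors and added bases were not told apart. The most abundant let-7d-3p sequence was that of RefSeq, which ends in a T that its hairpin encodes. It made up 62.5 ± 7.76% of the arm's counts in high glucose, against 82.2 ± 13.5% in low glucose (SD).

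The family's genes lie in several clusters (coordinates of the 5p arms in RefSeq, GRCr8). let-7a-1 (chr17:16320145-16320166, plus strand), let-7f-1 (chr17:16320508-16320529, plus strand) and let-7d (chr17:16322273-16322294, plus strand) lie inside the long noncoding RNA gene LOC120097935. let-7c-2 and let-7b neighbour each other on chromosome 7, and let-7f-2 and mir-98 lie within the span of Huwe1, a ubiquitin ligase gene on chromosome X. let-7g (chr8:115701026-115701047, plus strand) overlaps the spans of Rpl29 and Wdr82, with no other miRNA within 10 kb. let-7i (chr7:60527935-60527956, minus strand) overlaps that of the protein-coding gene LOC134479799 and likewise has no other miRNA within 10 kb. Members of 1 cluster differed: let-7a-5p and let-7d-5p rose while let-7f-5p, from the same cluster, had a log2 fold change of -0.06. Since let-7a, let-7c and let-7f have copies that give the same 5p sequence, counts could not be assigned to a copy.

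Other miRNAs lie beside let-7 genes. Mir99b and Mir125a lie by let-7e on chromosome 1, Mir99a lies by let-7c-1 on chromosome 11 and Mir100 by let-7a-2 on chromosome 8. miR-125 is the vertebrate relative of worm lin-4, and miR-99 and miR-100 are known as repressors of mTOR signalling. Of the 9 arms of miR-99a, miR-99b, miR-100, miR-125a and miR-125b with counts, 8 were tested, 7 were called higher (background 41.4%) and none lower (background 22.6%), with a median log2 fold change of 1.16. None was called lower in DESeq2 either, but upper quartile scaling called miR-100-5p lower and left 4 higher, and counting the most abundant sequence alone called miR-125b-5p lower. Over all arms, upper quartile scaling called 91 higher and 93 lower of 297. The most abundant sequence alone gave 89 higher and 40 lower of 236. After thinning, 3 neighbour arms were called higher and none lower, beside 62 higher and 59 lower of all 170 arms.

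At the let-7e locus both neighbours moved as let-7e-5p did. miR-99b-5p had 29023, 44433 and 39023 CPM in high glucose, against 7033, 8377 and 7595 CPM in low glucose (log2 fold change 2.29, adjusted p = 6.97e-05). miR-125a-5p had 8239, 12105 and 8361 CPM in high glucose, against 1490, 1689 and 2311 CPM in low glucose (log2 fold change 2.39, adjusted p = 0.000140). In both, each high glucose library stood above all controls. On the 3p side of this locus the log2 fold changes were 2.64 for miR-125a-3p (adjusted p = 0.000948) and 0.85 for miR-99b-3p (adjusted p = 0.00265). The call of miR-99b-3p was lost with upper quartile scaling (adjusted p = 0.252) and after thinning (adjusted p = 0.0578), and miR-125a-3p was too low to be tested after thinning.

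miR-100-5p, next to let-7a-2, had 6896, 6651 and 10137 CPM in high glucose, against 7611, 9603 and 8007 CPM in low glucose, with overlapping groups (log2 fold change -0.09, adjusted p = 0.713). miR-99a-5p, next to let-7c-1, had a log2 fold change of 0.44 (adjusted p = 0.0407). The miR-125b genes lie on the same chromosomes as let-7a-2 and let-7c-1 but not within 10 kb of a let-7 hairpin in RefSeq, and were listed with the neighbours as members of the wider clusters known in vertebrates. miR-125b-5p had a log2 fold change of 0.47 (adjusted p = 0.0216) and miR-125b-3p one of 1.46 (adjusted p = 0.000885). Upper quartile scaling turned the direction of both 5p arms, to -0.14 for miR-99a-5p and -0.12 for miR-125b-5p, and thinning ended both calls (adjusted p = 0.156 for miR-99a-5p and 0.0682 for miR-125b-5p). Counting the most abundant sequence alone called miR-125b-5p lower (-1.08, adjusted p = 0.00274).

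**Figure D5:**
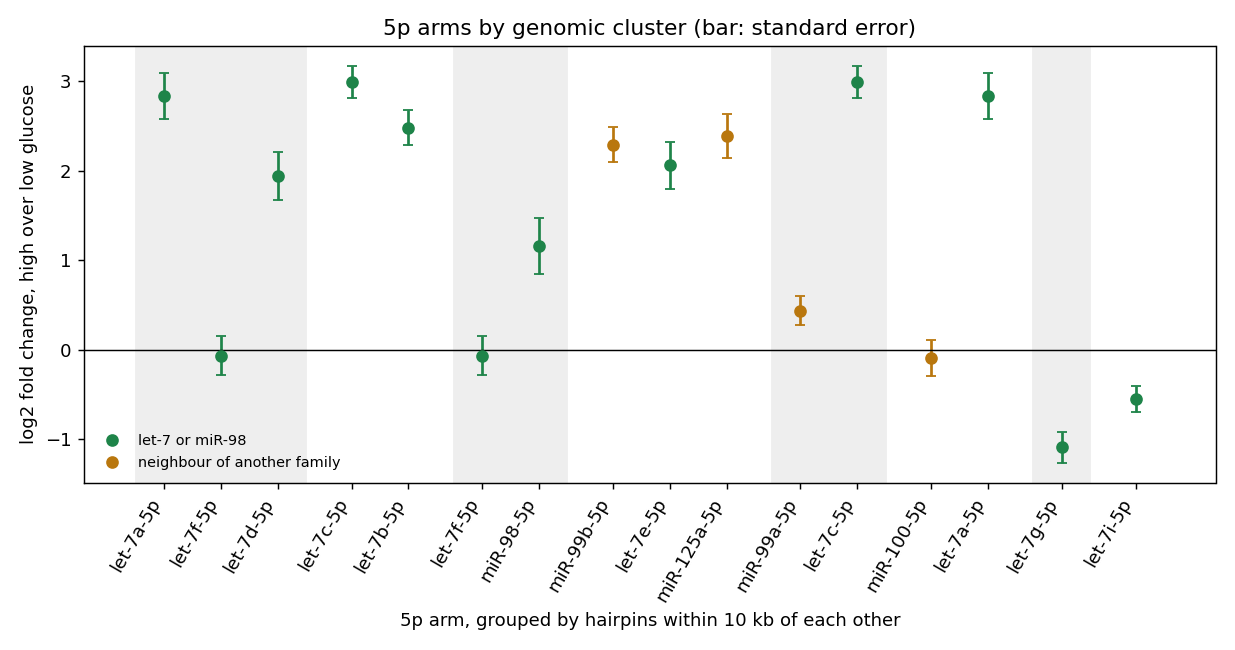
Log2 fold change (high over low glucose) with its standard error for 5p arms, grouped by hairpins within 10 kb of each other (let-7 and miR-98 green, other miRNAs orange; arms with several gene copies are repeated). let-7e-5p, miR-99b-5p and miR-125a-5p lie between 2.06 and 2.39, whereas miR-100-5p at -0.09 lies far below let-7a-5p at 2.84.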

How the data were processed

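Small RNA was sequenced in 6 RSC96 libraries, 3 in high and 3 in low glucose at 48 h, grouped and numbered by their titles. The deposited values are raw counts, per the file headers. Each line gives the reads of 1 sequence under 1 hairpin, along with the position and mismatches of the alignment. cutadapt 1.9.3 and Novoalign 3.02.12 appear in the submitters' processing notes, with no role stated. Neither genome build nor hairpin release is stated. Tested on the files, listed sequences are 16 to 40 nt, have at least 2 reads and at most 1 mismatch, so rare forms are missing more often from the small low glucose libraries. No family sequence was listed under another miRNA's hairpin.

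Counts were summed per mature arm, joining gene copies; a sequence was called 5p where its centre lay before the midpoint of the hairpin and 3p otherwise, and one listed under several hairpins was counted once per arm with its listed share. Python 3.11.15, pandas 2.3.3, NumPy 2.4.6, SciPy 1.17.1 and matplotlib 3.10.9 were used. edgeR 4.0.16 in R 4.3.3 tested all 297 arms that passed filterByExpr (minimum count 10) with the quasi-likelihood test, TMM scaling (also used for CPM), and Benjamini-Hochberg adjusted p-values under 0.05 were called. A standard error is log2 fold change over the root of F. For shares and ratios, exact permutation tests (two-sided) over libraries were used. Counting intervals are exact, cover counting error only, and PCR copies are not independent molecules. The scripts were tested on simulated data. limma 3.58.1 and DESeq2 1.42.0 served as alternatives, beside other scalings and filters, thinning, subsets of sequences and leaving out each library. Replicates were checked for repeats by chi-square tests of their counts, and none agreed within sampling noise.

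Members, lists and tests were chosen with earlier results of these data known. The text names every family arm with counts, every tested arm of the neighbour list, and the 5 annotated arms with a mean of at least 100 CPM, outside the family, whose log2 CPM correlated best with the family's 5p sum and with let-7g-5p. The base pattern at positions 11 and 12, the base composition and the ends of the 3p arms were chosen after values were seen. RefSeq (GRCr8) sequences matched 11 of the 12 hairpin sequences of the files exactly; that of let-7b was not compared.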

Additional observations from a re-analysis of the deposited data

How the results depend on the processing

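Of 264 alternative values for the log2 fold changes of family arms, 247 kept direction and call, as did 131 of 159 for neighbour arms. Counts of 2 lower family arms became 1 without the filter on low counts, with sequences without a mismatch only and with the most abundant sequence only, let-7i-5p being lost (log2 -0.48, -0.34 and -0.37), and lay between 1 and 2 when a library was left out; the lost call was let-7i-5p each time. Family arms called higher were 8 to 11 throughout and 9 to 11 when a library was left out. let-7f-5p, never called higher, changed sign without the filter (0.0065), with shared arms joined (0.076), with the most abundant sequence only (0.11), without high glucose replicate 2 (0.08) and without low glucose replicate 2 (0.10); with 1 library left out it ranged from -0.20 to 0.10. Over all arms, higher calls fell to 62 after thinning and 78 with annotated hairpins only, and lower calls to 40 with the most abundant sequence only. Without 1 library they ranged from 79 to 117 higher (79 without high glucose replicate 2) and 41 to 59 lower (41 without low glucose replicate 2). Higher calls made up 64.7% of all calls, 49.5% with upper quartile scaling and 51.2% after thinning. RLE and total count scaling shifted the median log2 fold change by -0.13 and -0.12. Neighbour arms called higher fell to 4 with upper quartile scaling and 3 after thinning; lower ones became 1 with upper quartile scaling and 1 with the most abundant sequence only. miR-100-5p changed sign without mismatches (0.037), with shared arms joined (0.039) and without low glucose replicate 2 (0.17); miR-125b-5p reversed to -0.12 and miR-99a-5p to -0.14 with upper quartile scaling, and miR-125b-5p to -1.08 with the most abundant sequence only. In 11 further alternatives for miR-99a-5p and 8 for miR-125b-5p the call alone was lost. The causes were not tested. The difference in the 22 nt share changed sign after thinning (0.11) and without high glucose replicate 2 (0.74), low glucose replicate 2 (0.02) or 3 (0.32), and ranged from -0.63 to 0.74 points with 1 library left out. The 99 alternative values of the ratios kept their direction. Apart from those of let-7d-3p to let-7d-5p, all were ratios to let-7g-5p, the arm with the lowest log2 fold change, so their direction follows from that reference. Same-numbered libraries did not deviate together (r of 0.04, -0.0007 and -0.03), so numbers were not taken as pairs; with the replicate block 10 family arms were higher and 2 lower, and 104 and 58 of all arms. The 3p arms other than let-7d-3p rest on at most 8 counts each in any low glucose library, or at most 16 for let-7a-3p and let-7c-3p joined.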

Other observations

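Some miRNAs outside the family had levels close in pattern to it over the 6 libraries. Among 108 annotated arms, the log2 CPM of miR-151-3p (Pearson r = 0.992), miR-423-3p (0.991), miR-760-3p (0.988), miR-28-3p (0.987) and miR-99b-5p (0.984) correlated best with that of the summed let-7 and miR-98 5p arms. miR-151-3p averaged 10817 CPM in high glucose, against 672 CPM in low glucose, and miR-423-3p 1458 CPM in high glucose, against 517 CPM in low glucose. For let-7g-5p the best were miR-19b-3p (0.993), miR-21-5p (0.989), miR-23a-3p (0.987), miR-103-3p (0.973) and miR-23b-3p (0.964). miR-21-5p, a miRNA known to be abundant in Schwann cells, averaged 173417 CPM in high glucose, against 420781 CPM in low glucose, and miR-19b-3p, a member of the miR-17 to miR-92 cluster, 34.5 CPM in high glucose, against 310 CPM in low glucose. The correlations are a description: the 6 points fall into the 2 glucose groups, which also differ in depth.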
